A study of Mus musculus with 2 samples.

Results

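The 10 genes of B cell identity and B cell receptor signalling described here are Ebf1, Pax5, Pbx3, Cd79a, Cd79b, Vpreb3, Cr2, Cd52, Blk and Bank1, measured in the intestinal immune cells of irradiated mice. They were taken by symbol, and all 10 were found among the 54838 genes of the count files. A single-cell RNA library was made from the intestine of Dpf2 KO mice and another from that of WT mice, 1 library for each genotype, and the mice of both had been exposed to 10 Gy of X-rays. Live immune cells had been sorted with GFP and tdTomato as gates. No source used here states the Dpf2 allele, any Cre driver, the age, sex and number of the mice, or the time after irradiation. Dpf2 encodes a PHD-finger subunit of BAF chromatin remodelling complexes.

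B cells read antigen through membrane immunoglobulin, which has almost no cytoplasmic tail and signals through the paired chains Igα (Cd79a) and Igβ (Cd79b). Ebf1 and Pax5 encode the transcription factors that establish and hold the B lineage, and Cd79a is a classical target of both. When a B cell becomes an antibody-secreting plasma cell, Pax5 and much of the receptor programme are switched off. The gut wall holds both kinds of cell, B cells mainly in lymphoid follicles and plasma cells in the lamina propria.

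Filtering left 8265 Dpf2 KO cells, at a median depth of 4112 UMIs (unique RNA molecules) per cell, and 10259 WT cells, at a median of 4543. The libraries shared 24 cell barcodes. Both libraries were mixtures of cells with Xist and cells with Y-linked UMIs. B cells, named from 15 markers that include none of the 10 genes, numbered 2705 in Dpf2 KO (32.7% of cells) and 1127 in WT (10.99%). Plasma cells numbered 621 in Dpf2 KO and 1327 in WT. T cells, where B cell transcripts were read as background, numbered 981 in Dpf2 KO and 2483 in WT. A level is UMIs per 1000000 UMIs of a class. A log2 ratio is Dpf2 KO over WT after adding 10 per 1000000, and past 1.5-fold means beyond 0.585 either way among genes with enough UMIs. Every interval is a 95% interval and covers counting error only. With 1 library per genotype there was no replicate check and no test, and genotype cannot be told apart from the library's mice, handling and sort. Dpf2 itself was at 27.2 in Dpf2 KO B cells and 40.5 in WT B cells (log2 ratio -0.44). Which bases of it were deleted is not stated, so this level does not check the labels. Levels are not compared between genes, since UMI counts here are not scaled to length.

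Cd79a and Vpreb3 are shown by sequence because both stood lower in Dpf2 KO B cells and because, of 14061 genes compared, Vpreb3 had the profile across cell classes most like that of Cd79a. Vpreb3 encodes a small immunoglobulin-like protein that binds newly made immunoglobulin chains inside pre-B and B cells. The 250 bases before each RefSeq start are printed 5′ to 3′ on the plus strand of build GRCm38.p6, chr7:24897247-24897496 for Cd79a and chr10:75948050-75948299 for Vpreb3. The gene model used for the positions below starts inside the printed Cd79a window, and the Vpreb3 window lies within its gene span. Capitals mark the letters GGGAAT, a core of the motif known for EBF proteins, found by searching both strands.
Cd79a: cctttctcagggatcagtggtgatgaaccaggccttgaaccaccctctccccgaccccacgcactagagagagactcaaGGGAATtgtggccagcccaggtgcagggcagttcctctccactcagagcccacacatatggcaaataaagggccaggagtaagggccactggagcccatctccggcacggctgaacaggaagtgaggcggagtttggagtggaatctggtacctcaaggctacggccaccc
Vpreb3: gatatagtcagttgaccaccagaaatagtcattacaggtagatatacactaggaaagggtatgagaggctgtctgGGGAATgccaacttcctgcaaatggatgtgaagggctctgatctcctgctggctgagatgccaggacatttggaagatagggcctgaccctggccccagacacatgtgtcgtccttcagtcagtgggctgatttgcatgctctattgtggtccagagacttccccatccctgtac
The letters began 171 bases before the start in Cd79a and 175 before it in Vpreb3. Of 32851 RefSeq promoter windows of 300 bases (250 before and 50 after a start), 13.1% held them on either strand. Promoter windows were matched for 6 of the 10 genes. Ebf1 had 2 windows, of which 1 held GGGAAT on its minus strand, and those of Pax5, Cr2 and Bank1 held none. That makes 3 of 7 windows. A match is a description of letters, and binding was not measured.

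In B cells, 3 of the 10 genes were past 1.5-fold lower in Dpf2 KO (Cd79a, Vpreb3 and Cd52) and 1 was past 1.5-fold higher (Pbx3). All 10 had enough UMIs. Of the 6971 genes with enough UMIs in B cells, 3.46% were past 1.5-fold lower and 1.53% past 1.5-fold higher. The median log2 ratio was -0.39 over the 10 genes and 0.02 over all genes. The lineage factors Ebf1 and Pax5 lay close to equal between the libraries. Over all B cells the receptor chain Cd79a was lower in Dpf2 KO and its partner Cd79b slightly higher. The 15 B cell markers that named the class summed to 2254 in Dpf2 KO and 3173 in WT B cells.

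**Figure D1:**
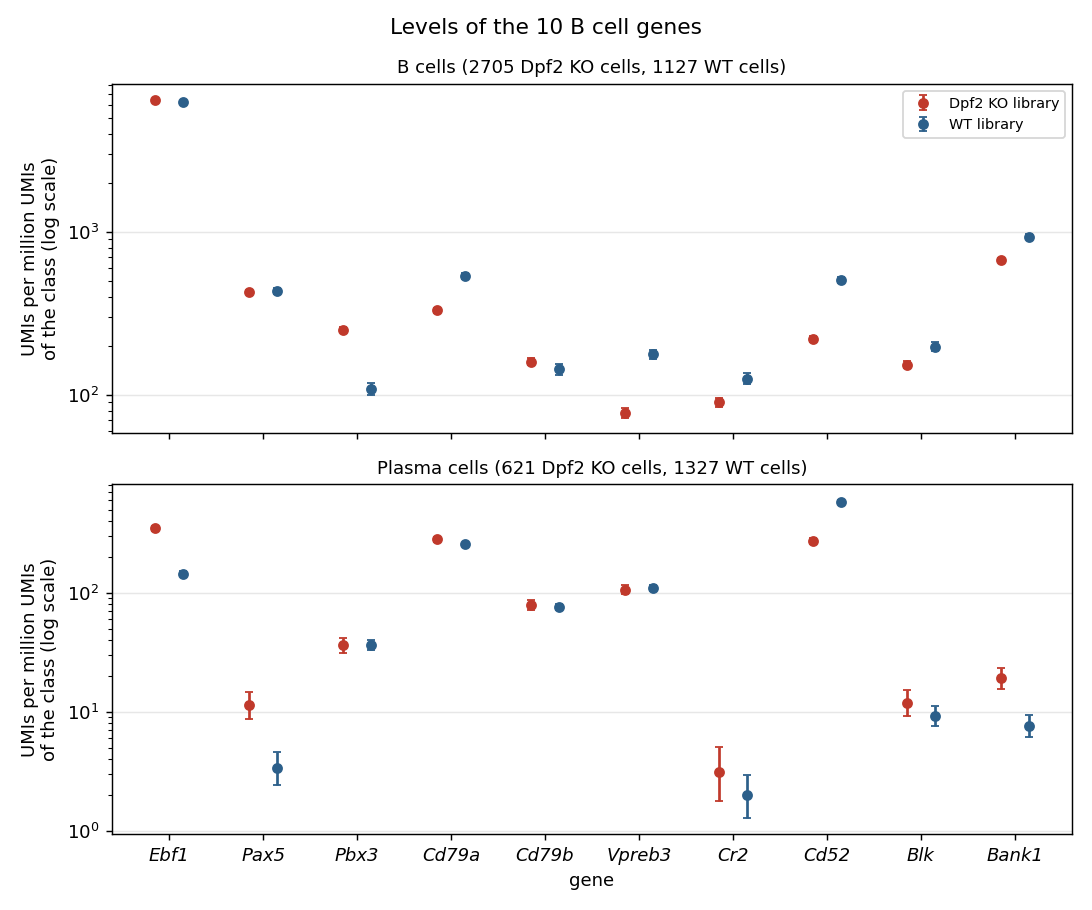
Levels of the 10 genes in B cells (upper panel) and plasma cells (lower panel), in UMIs per 1000000 UMIs of the class on log axes, with exact Poisson 95% intervals. Red points are the Dpf2 KO library and blue points the WT library. In B cells Pbx3 is higher in Dpf2 KO (252 in Dpf2 KO, 109 in WT), while Cd79a, Vpreb3 and Cd52 are lower. In plasma cells Cd79a, Cd79b and Vpreb3 are close in both libraries.

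Positions are GENCODE M21 gene spans on build GRCm38. Ebf1 (chromosome 11, 44617317 to 45008091, plus strand) stood at 6449 (6401 to 6498) in Dpf2 KO B cells and 6248 (6177 to 6319) in WT B cells, 1.03-fold (1.02 to 1.05). It was found in nearly every B cell, 99.8% in Dpf2 KO and 99.6% in WT. Pax5 (chromosome 4, 44524757 to 44710487, minus strand) stood at 427 (415 to 439.9) in Dpf2 KO and 433 (414 to 452) in WT, a fold of 0.987 (0.937 to 1.04). These log2 ratios, 0.05 for Ebf1 and -0.02 for Pax5, are the smallest among the 10 genes, and the interval of the Pax5 fold includes 1.

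Pbx3 (chromosome 2, 34171457 to 34373142, minus strand) encodes a TALE homeodomain factor, a partner of Hox and Meis proteins. It was at 252 (242 to 262) in Dpf2 KO B cells and 109 (99.8 to 119) in WT B cells, 2.31-fold higher (2.10 to 2.54). More cells carried it and cells that carried it held more. After every cell was thinned to 1000 UMIs, which leaves 2667 Dpf2 KO and 1114 WT B cells, a Pbx3 UMI was in 17.5% (16.1 to 19.0) of Dpf2 KO B cells and 8.44% (6.87 to 10.2) of WT B cells. In T cells these shares were 4.86% in Dpf2 KO and 5.06% in WT. Before thinning, 10.2% of Dpf2 KO and 3.64% of WT B cells had 4 or more Pbx3 UMIs, and 66.8% of Dpf2 KO and 80.1% of WT B cells had none. The log2 ratio was 1.21 in cells with Xist UMIs only and 1.16 in cells with Y-linked UMIs only.

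Cd79a (chromosome 7, 24897381 to 24902197, plus strand), Igα, was at 331 (320.1 to 342) in Dpf2 KO B cells and 536 (516 to 557) in WT B cells. The fold was 0.617 (0.586 to 0.650). After thinning, 26.5% (24.8 to 28.2) of Dpf2 KO and 39.9% (37.0 to 42.8) of WT B cells had a Cd79a UMI. In T cells, which should lack it, these shares were 1.48% in Dpf2 KO and 1.07% in WT. Median depths were 3830 UMIs in Dpf2 KO and 3886 in WT T cells, against 3373 in Dpf2 KO and 3542 in WT B cells. Cells with 4 or more Cd79a UMIs were 7.62% of Dpf2 KO and 22.0% of WT B cells.

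Cd79b (chromosome 11, 106311341 to 106314762, minus strand), Igβ, was at 160.1 (153 to 168) in Dpf2 KO and 144 (133 to 155) in WT, 1.12-fold (1.02 to 1.22). Its direction over all B cells therefore differed from that of Cd79a in these libraries. Over all B cells the Cd79b difference was well inside 1.5-fold. The Cd79b log2 ratio was -0.00013 in cells with Xist UMIs only and 0.29 in cells with Y-linked UMIs only. Thinned shares were 13.3% in Dpf2 KO and 12.7% in WT B cells, with intervals that overlap (12.04 to 14.7 in Dpf2 KO and 10.8 to 14.8 in WT). In T cells they were 0.951% in Dpf2 KO and 0.494% in WT.

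Vpreb3 (chromosome 10, 75943057 to 75949657, plus strand) was at 77.9 (72.7 to 83.4) in Dpf2 KO B cells and 177 (165 to 189.6) in WT B cells, a fold of 0.440 (0.399 to 0.484). A UMI of it was present in 7.35% of Dpf2 KO and 15.7% of WT thinned B cells, against 0.211% of Dpf2 KO and 0.165% of WT T cells. Its log2 ratio was -1.09, where that of Cd79a was -0.68.

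Cd52 (chromosome 4, 134082448 to 134095082, minus strand) encodes a very short GPI-anchored glycoprotein of the lymphocyte surface. It was at 220.4 (212 to 229.5) in Dpf2 KO B cells and 507 (487 to 527) in WT B cells, a fold of 0.435 (0.411 to 0.461). At least 4 UMIs of Cd52 were in 4.62% of Dpf2 KO and 17.5% of WT B cells. Cr2 (chromosome 1, 195136811 to 195176716, minus strand) encodes the complement receptor of B cells, which binds C3 fragments. It was at 90.2 (84.6 to 96.1) in Dpf2 KO and 126 (116 to 136) in WT, a fold of 0.716 (0.646 to 0.794). Neither surface gene was higher in Dpf2 KO.

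Blk and Bank1 encode signalling proteins downstream of the receptor. Blk (chromosome 14, 63372836 to 63417037, minus strand), a Src family kinase, was at 153 (146 to 161) in Dpf2 KO and 198 (186 to 211) in WT, a fold of 0.774 (0.714 to 0.840). Bank1 (chromosome 3, 136053363 to 136326066, minus strand), a scaffold for Lyn and phospholipase C gamma 2, was at 675 (659.5 to 691) in Dpf2 KO and 938 (911 to 966) in WT. Its fold was 0.719 (0.693 to 0.747). Both lay within 1.5-fold, and for both the interval excluded equal levels. In B cells with Y-linked UMIs only, Bank1 was past 1.5-fold lower (-0.60), as was Cr2 (-0.69). In those with Xist UMIs only, the log2 ratio was -0.42 for Bank1 and -0.09 for Cr2.

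Other genes that reach into the same pathway were split by group. Of 20 B cell receptor signalling genes such as Syk, Btk and Blnk, 10 were higher and 10 lower in Dpf2 KO B cells, none was past 1.5-fold, and the median log2 ratio was 0.00. All 11 coreceptor and inhibitory receptor genes with enough UMIs, of 14, were lower, none of them past 1.5-fold, with a median of -0.37. For comparison, 47.4% of all genes were lower. Of 20 further B cell transcription factors 15 were lower, with a median of -0.18. Only Klf2, a factor of lymphocyte quiescence and trafficking, was past 1.5-fold among them (253 in Dpf2 KO, 413 in WT, log2 ratio -0.68).

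Among 20 surface and survival genes, 12 were lower and 3 past 1.5-fold lower. Ly6d, a GPI-anchored marker of the early B lineage, was at 98.6 in Dpf2 KO and 319 in WT B cells (log2 ratio -1.60). Ltb, lymphotoxin beta, was at 26.7 in Dpf2 KO and 61.5 in WT (-0.96). Ighm, the IgM heavy chain, was at 582 in Dpf2 KO and 898 in WT (-0.62). Ighd, the IgD heavy chain, was at 188 in Dpf2 KO and 176 in WT. Of 15 plasma cell programme genes, 11 had enough UMIs in B cells and 4 were past 1.5-fold lower, the furthest being Mzb1, an ER chaperone of IgM assembly (67.9 in Dpf2 KO, 173 in WT, log2 ratio -1.23). Cd28 (-0.76), a costimulatory receptor also held by plasma cells, and Creld2 (-0.70), an ER protein, were 2 more of these. The summed level of the 13 plasma cell markers within B cells was 4629 in Dpf2 KO and 6374 in WT, and all 13 had UMIs in both libraries. The 16 T cell markers summed to 133 in Dpf2 KO and 237 in WT B cells, with UMIs of 16 markers in Dpf2 KO and 15 in WT. The 8 Paneth cell markers summed to 151 in Dpf2 KO, with UMIs of 8, and to 4.41 in WT, with UMIs of 4. The part of such RNA in the differences above was not tested. Of 10 genes of early B cell development, such as Rag1 and Igll1, 2 had enough UMIs in B cells and none was past 1.5-fold.

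B cells were clustered again without the 10 genes, which gave 9 subclusters, of which 8 held at least 20 cells of each library. Cd79a, Vpreb3, Cd52, Cr2, Blk and Bank1 were lower in Dpf2 KO in 8 of 8 subclusters, and Pbx3 was higher in 8 of 8. Cd79a levels ran between 251 and 453 in the Dpf2 KO cells of these 8 subclusters and between 463 and 641 in the WT cells, with no overlap. Vpreb3 ran between 61.1 and 91.3 in Dpf2 KO and between 84.8 and 204 in WT, overlapping only through subcluster 6, which had 21 WT cells. Pbx3 ran between 122 and 374 in Dpf2 KO and between 73.1 and 184 in WT, where ranges overlap. Ebf1 was higher in 4 and lower in 4 subclusters, and Pax5 and Cd79b were each higher in 5 and lower in 3. By subcluster the Cd79b log2 ratio ran from -0.11 to 1.01, so it was not inside 1.5-fold throughout. Subclusters of 1 library share its cells and handling, so they are not replicates. How many of all genes kept the same direction throughout, or did not overlap, was not counted. These counts therefore cannot be called unusual.

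**Figure D2:**
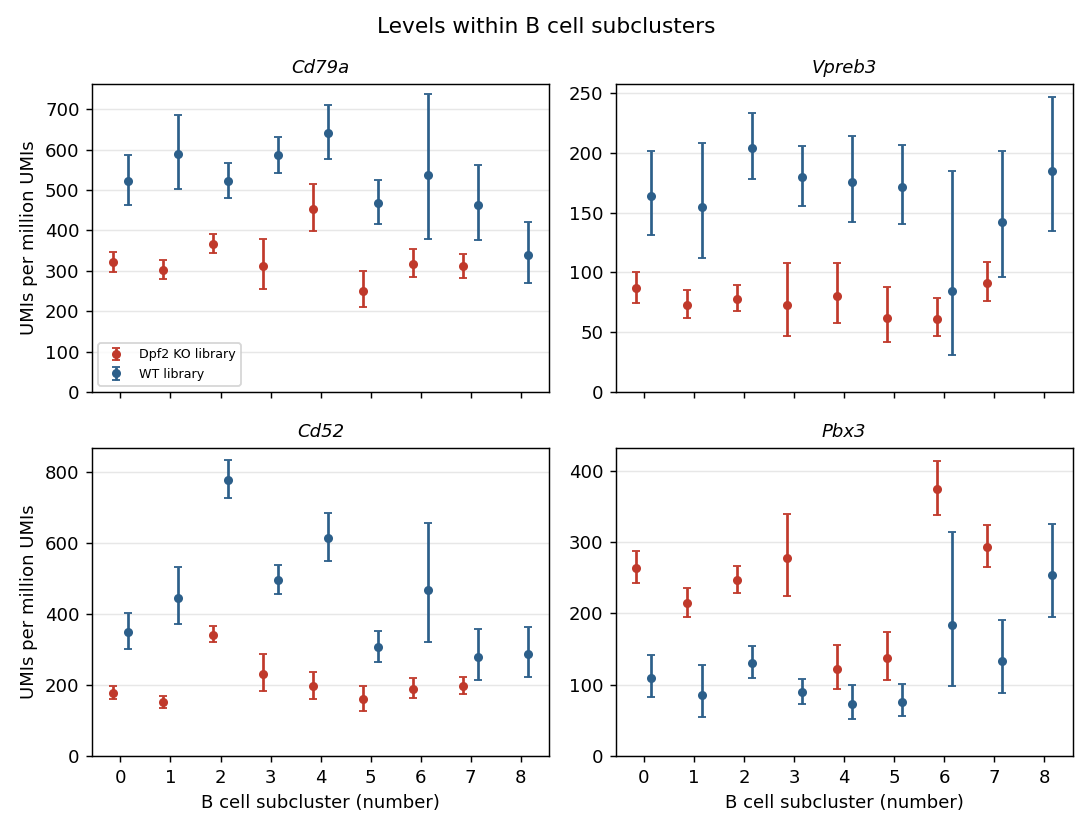
Levels of Cd79a, Vpreb3, Cd52 and Pbx3 in UMIs per 1000000 UMIs (vertical axes start at 0) by B cell subcluster, with exact Poisson 95% intervals, for Dpf2 KO (red) and WT (blue). Cd79a in Dpf2 KO stays at or below 453 in every subcluster with cells, while WT cells of subclusters 0 to 7 start at 463. Subcluster 8 held WT cells only.

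IgD marks mature naive B cells, but Ighd was too sparse here to part clusters clearly. An Ighd UMI was found in 44.1% of Dpf2 KO and 45.3% of WT B cells, and in 2.45% of Dpf2 KO and 1.13% of WT T cells. By subcluster the share ran from 8.70% to 53.8%. The 2 subclusters at or above 50%, taken as IgD-positive, held 630 Dpf2 KO and 310 WT cells, and subcluster 7 fell just short at 49.7%. Cells were therefore also placed by their own UMIs, with 2 or more Ighd UMIs in 492 Dpf2 KO and 205 WT cells, 1 UMI in 702 Dpf2 KO and 305 WT cells, and none in 1511 Dpf2 KO and 617 WT cells.

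In the cells with 2 or more Ighd UMIs, Cd79a was at 367 in Dpf2 KO and 599 in WT (log2 ratio -0.69), and in those with none it was at 307 in Dpf2 KO and 508 in WT (-0.71). Vpreb3 was at 80.6 in Dpf2 KO and 199 in WT with 2 or more Ighd UMIs (-1.21), and at 76.4 in Dpf2 KO and 172 in WT with none (-1.07). Pbx3 was at 247 in Dpf2 KO and 94.98 in WT with 2 or more (1.29), and at 265 in Dpf2 KO and 113 in WT with none (1.16). The ratios of these genes thus lay close in both groups of cells. Because Ighd was sparse, a cell without an Ighd UMI may still express it, so the groups are not separate kinds of B cell. Median depths without and with 2 or more Ighd UMIs were 3102 and 4177.5 in Dpf2 KO, and 3342 and 4069 in WT. Cr2 differed more with Ighd, at 76.0 in Dpf2 KO and 159 in WT with 2 or more Ighd UMIs (-0.97), against 86.6 in Dpf2 KO and 113 in WT with none (-0.35). Cd52 ran the other way, with log2 ratios of -0.91 with 2 or more and -1.40 with none. Cd79b had 0.42 with 2 or more and -0.06 with none. These differences between Ighd groups were not tested. Of the 10 genes, 4 were past 1.5-fold lower and 1 higher in cells with 2 or more Ighd UMIs, where 3.71% and 3.39% of 4953 genes were. In cells with none, 3 were lower and 1 higher, where 5.12% and 2.45% of 6601 genes were. In the subclusters taken as IgD-positive, 4 were past 1.5-fold lower and 1 higher (background 3.76% and 2.99%), and in the IgD-negative ones 3 and 1 (4.26% and 1.95%).

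Inside each library, cells without Ighd UMIs and cells with 2 or more differed little in these genes. In Dpf2 KO, Cd52 was at 179 in cells without and 296 in cells with 2 or more (log2 ratio -0.69), the only member past 1.5-fold, where 0.899% of genes were past it in that direction. In WT none of the 10 was past 1.5-fold, where 0.934% of genes were lower and 0.955% higher, and Cd52 was at 490.4 without Ighd UMIs and 565 with 2 or more (-0.20). Cr2 in Dpf2 KO was at 86.6 without and 76.0 with 2 or more (0.17), and in WT at 113 without and 159 with 2 or more (-0.45).

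Subcluster 8 was germinal centre-like by its markers, with Nuggc among its leading genes. It held 0 of 2705 Dpf2 KO B cells, which allows a share of up to 0.111% by a limit of 3 cells and 0.136% by the exact interval, and 23 of 1127 WT B cells, 2.04% (1.30 to 3.05, exact Clopper-Pearson). In these 23 cells Cr2 had 2 UMIs, a level of 8.20, against 132 in the other WT B cells. Bank1 was at 111 there and 983 in the others (log2 ratio -3.04). Cd79b was at 357 against 132 (1.37) and Pbx3 at 254 against 101 (1.25). Pax5 was at 533 against 427 and Ebf1 at 4780.2 against 6327, both within 1.5-fold. Of the 10 genes 4 were past 1.5-fold lower and 2 higher in subcluster 8, where 24.7% and 20.5% of 5598 genes were. Many of all genes were thus past 1.5-fold in these few cells.

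**Figure D3:**
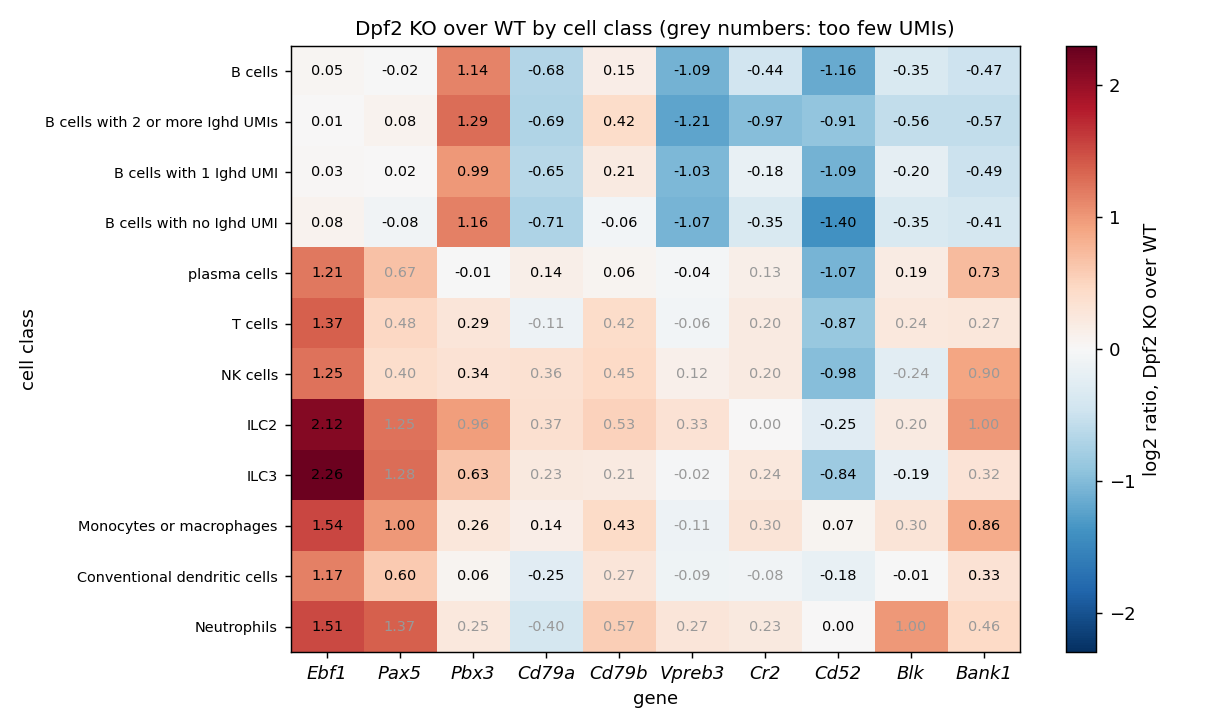
Log2 ratio of Dpf2 KO over WT for the 10 genes (columns) in B cells, B cells by their Ighd UMIs, and other cell classes (rows). Red is higher and blue lower in Dpf2 KO, and grey numbers have too few UMIs. Cd79a and Vpreb3 are blue in the B cell rows and near 0 in plasma cells, Cd52 is blue in several lymphoid rows, and Ebf1 is red in all 8 rows of other classes.

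Over all plasma cells, Cd79a, Cd79b and Vpreb3 had log2 ratios between -0.04 and 0.14. In those with Y-linked UMIs only, Cd79a was past 1.5-fold higher (0.63) and Vpreb3 had -0.52, while in those with Xist UMIs only Cd79a had 0.11 and Vpreb3 0.33. Of the 8 members with enough UMIs there, Ebf1 and Bank1 were past 1.5-fold higher in Dpf2 KO and Cd52 was past 1.5-fold lower, where 2.48% of 8056 genes were higher and 5.24% lower. Pax5 and Cr2 had too few UMIs. Over the other 8 the median log2 ratio was 0.10, against -0.12 over all genes with enough UMIs. Over all 10 members, with Pax5 and Cr2 included, it was 0.14. Cd79a was at 282 (267 to 296) in Dpf2 KO plasma cells and 254 (245 to 264) in WT (log2 ratio 0.14). Cd79b was at 79.5 (71.9 to 87.6) in Dpf2 KO and 76.0 (71.1 to 81.1) in WT. Vpreb3 was at 107 (97.7 to 116) in Dpf2 KO and 110.2 (104 to 116) in WT. For Cd79b and Vpreb3 these intervals overlap. Pbx3 was at 36.1 (31.1 to 41.7) in Dpf2 KO and 36.3 (33.0 to 39.9) in WT plasma cells. That was 2.21 times the level that B cell tracer genes would give in Dpf2 KO and 11.1 times in WT. The tracer level takes free RNA as coming from B cells only, while Pbx3 was found in most classes. Its background in plasma cells is therefore not known. Cd52 was at 273 (259 to 288) in Dpf2 KO and 583 (569.8 to 597) in WT, a log2 ratio of -1.07 that lay near the -1.16 of B cells.

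The 10 genes split by how much of their B cell level plasma cells kept. In the Dpf2 KO library Cd79a stood at 0.851 (0.799 to 0.905) of its B cell level, Cd79b at 0.496 (0.444 to 0.553), and Vpreb3 at 1.37 (1.22 to 1.53). In WT the fold of plasma cells over B cells was 0.474 (0.450 to 0.5003) for Cd79a, 0.529 (0.479 to 0.585) for Cd79b and 0.622 (0.570 to 0.679) for Vpreb3. The libraries thus gave different folds for Cd79a and Vpreb3, whose B cell levels differ between them, and close folds for Cd79b. The identity factors and signalling genes were far lower in plasma cells. Pax5 stood at 0.0266 of its B cell level in Dpf2 KO and 0.00788 in WT, Bank1 at 0.0285 in Dpf2 KO and 0.00815 in WT, and Ebf1 at 0.0540 in Dpf2 KO and 0.0232 in WT. Median depths were 7687 UMIs in Dpf2 KO and 8838 in WT plasma cells. Cd52 was slightly above its B cell level in both libraries, 1.24-fold in Dpf2 KO and 1.15-fold in WT. The median log2 ratio of plasma cells over B cells was -2.70 in Dpf2 KO and -2.40 in WT over the 10 genes, against -0.66 in Dpf2 KO and -0.48 in WT over all genes. Past 1.5-fold lower were 7 of 10 in Dpf2 KO, where 54.0% of genes were, and 9 of 10 in WT, where 44.7% were. Immunoglobulin took 44.6% of plasma cell UMIs in Dpf2 KO and 39.0% in WT, and levels are shares of totals that include it. The 16 T cell markers summed to 322 in Dpf2 KO and 654 in WT plasma cells, and the 15 B cell markers to 1158 in Dpf2 KO and 1155 in WT.

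In plasma cells the same 20 receptor signalling genes included Btk, the kinase downstream of the receptor, at 119 in Dpf2 KO and 37.2 in WT (log2 ratio 1.45), and Plcg2, phospholipase C gamma 2, at 75.5 in Dpf2 KO and 126 in WT (-0.67). Of the 20, 1 was past 1.5-fold higher and 3 lower, with a median of -0.03. Ighm was at 664 in Dpf2 KO and 186 in WT plasma cells (1.78). Of the 15 plasma cell programme genes, 11 were lower, 4 of them past 1.5-fold. Their median log2 ratio was -0.17, against -0.12 over all genes. The share of all genes lower at any size in plasma cells is not given here. The part of the general shift in this count was not tested. Among all 8056 genes 5.24% were past 1.5-fold lower and 2.48% higher. Creld2, an ER stress gene, was at 107 in Dpf2 KO and 315 in WT (-1.47). Fkbp11, an ER prolyl isomerase, was at 40.8 in Dpf2 KO and 115 in WT (-1.30).

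Droplet libraries carry free RNA, so B cell transcripts outside B cells were set against Ms4a1 and Fcrl1, 2 B cell genes chosen after the data had been seen. In T cells these tracers stood at 2.69% of their B cell level in Dpf2 KO (49 UMIs) and 1.17% in WT (78 UMIs), and in plasma cells at 6.48% in Dpf2 KO (146 UMIs) and 3.01% in WT (220 UMIs). A gene that reaches a class only as the tracers do has a ratio near 1 to the level they give. In plasma cells that ratio was 13.1 in Dpf2 KO and 15.8 in WT for Cd79a, 7.66 in Dpf2 KO and 17.6 in WT for Cd79b, and 21.1 in Dpf2 KO and 20.7 in WT for Vpreb3. In Dpf2 KO plasma cells it was 0.83 for Ebf1, 0.41 for Pax5, 0.44 for Bank1 and 0.54 for Cr2, and in WT plasma cells 0.77 for Ebf1, 0.26 for Pax5, 0.27 for Bank1 and 0.53 for Cr2. The plasma cell levels of those 4 are thus below the level that the tracers give. Ebf1 in plasma cells (348 in Dpf2 KO, 145 in WT) stood above its T cell level (105 in Dpf2 KO, 34.6 in WT). Bank1 did as well, at 19.2 in Dpf2 KO and 7.65 in WT plasma cells, against 7.29 and 4.37 in T cells. Whether the tracers in plasma cells were free RNA only was not tested. The higher Ebf1 and Bank1 of Dpf2 KO plasma cells are not read as a difference in expression.

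Ebf1 in T cells was at 105 (95.3 to 115) in Dpf2 KO and 34.6 (31.2 to 38.2) in WT, and its log2 ratio was between 1.17 and 2.26 in plasma cells, T cells, NK cells, ILC2, ILC3, monocytes or macrophages, conventional dendritic cells and neutrophils. Plasmacytoid dendritic cells went the other way, with 87.5 (56.7 to 129) in 32 Dpf2 KO cells and 189 (145 to 242) in 69 WT cells. B cells were 32.7% of the Dpf2 KO cells and 10.99% of the WT cells. Stromal cells, which express Ebf1 in their own right in mouse, were at 1200.6 in Dpf2 KO and 1027 in WT, 2.98 times the tracer level in Dpf2 KO (13 tracer UMIs) and 15.3 times in WT (15 tracer UMIs). Over all cells Ebf1 was at 1705 in Dpf2 KO and 634 in WT, where B cells alone were at 6449 in Dpf2 KO and 6248 in WT.

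**Figure D4:**
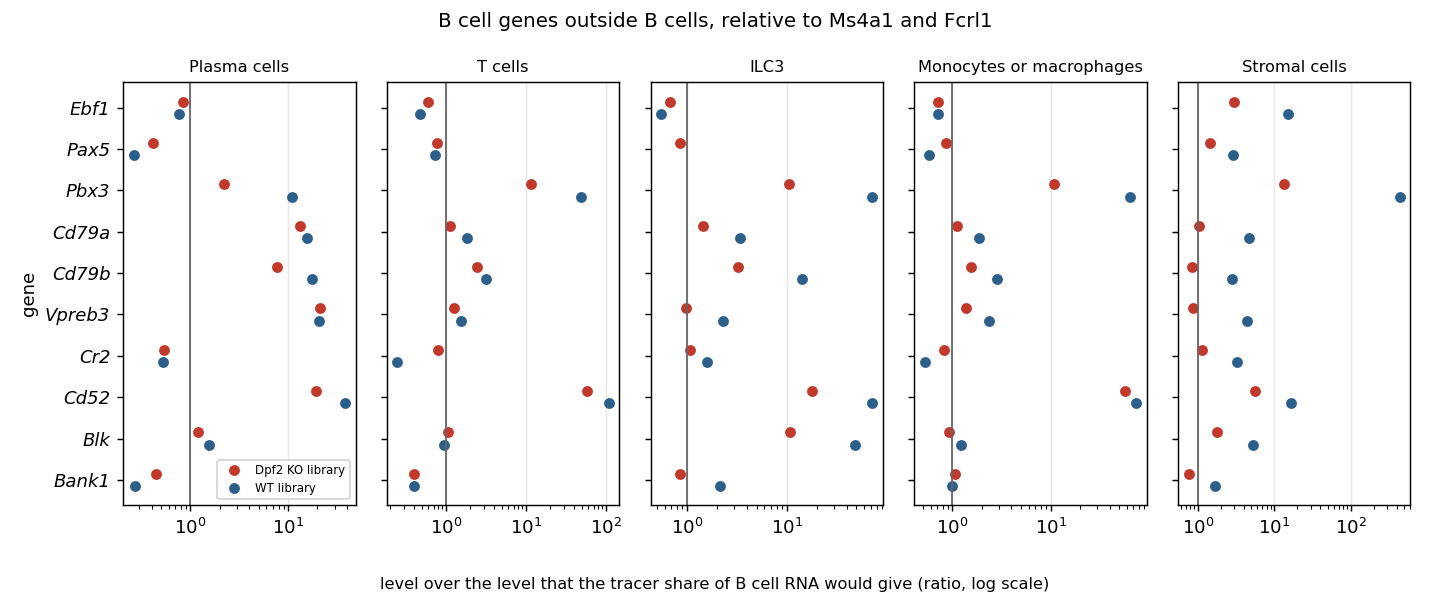
Level of each gene in 5 classes outside B cells, divided by the level that the class's share of Ms4a1 and Fcrl1 RNA would give, on log axes (red, Dpf2 KO; blue, WT; a gene with no UMI has no point, and the WT points of ILC3 rest on 3 tracer UMIs). The grey line marks a ratio of 1. In plasma cells Cd79a, Cd79b and Vpreb3 lie at 7.66 or above, and Ebf1, Pax5, Cr2 and Bank1 below 1.

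Some members had levels of their own in other classes. Blk was at 65.4 (52.4 to 80.7) in Dpf2 KO ILC3 and 76.0 (55.8 to 101) in WT ILC3, the innate lymphocytes that make IL-22, 10.9 times the tracer level in Dpf2 KO (23 tracer UMIs). In WT ILC3 the tracers had 3 UMIs, too few for a ratio to be read. In T cells Blk was at 4.37 in Dpf2 KO, 1.06 times the tracer level, and 2.18 in WT, 0.95 times. Pbx3 was found in most classes, with 129 in Dpf2 KO and 106 in WT monocytes or macrophages, and 210.0 in Dpf2 KO and 516 in WT stromal cells. In T cells Pbx3 was at 77.7 in Dpf2 KO and 62.0 in WT (log2 ratio 0.29), against 1.14 in B cells. In ILC3 it was at 103 in Dpf2 KO and 63.0 in WT (0.63), and in ILC2 at 57.2 in Dpf2 KO (31 UMIs) and 24.6 in WT (14 UMIs). In cluster 13, a cluster without a cell type name that had Foxp3 among its leading genes, it was at 122 in Dpf2 KO and 55.4 in WT (1.01). Higher Pbx3 in Dpf2 KO was thus also seen outside B cells, and differences between classes were not tested. Cd79a outside the B lineage was between 9.96 and 21.2 in the Dpf2 KO classes named here and between 8.33 and 27.4 in the WT ones.

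Cd52 was lower in Dpf2 KO in lymphoid classes well beyond B cells. In T cells it was at 344 in Dpf2 KO and 638 in WT (log2 ratio -0.87), where 4.51% of 7160 genes were past 1.5-fold lower. In NK cells it was at 225 in Dpf2 KO and 453 in WT (-0.98; background 3.90%), and in ILC3 at 156 in Dpf2 KO and 288 in WT (-0.84; background 5.57%). In ILC2 it was at 138 in Dpf2 KO and 167 in WT (-0.25). In plasmacytoid dendritic cells Cd52 was at 116 (79.5 to 162) in 32 Dpf2 KO cells and 270.1 (217 to 332) in 69 WT cells. Levels were closer in 3 further classes. Cd52 was at 602 in Dpf2 KO and 574 in WT monocytes or macrophages (0.07), at 758 in Dpf2 KO and 757 in WT neutrophils (0.00), and at 612 in Dpf2 KO and 694 in WT conventional dendritic cells (-0.18).

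Gene span moved with the ratio. Genes were put in 5 groups of 1394 by span. In B cells the group with the shortest span, under 9.37 kb, had a median log2 ratio of -0.13 and 9.90% were past 1.5-fold lower. The longest had a median of 0.09 and 1.79% were past it in that direction. Cd79a, Cd79b and Vpreb3 are in the shortest group, Cd52 in the next, Cr2 and Blk in the fourth, and Ebf1, Pax5, Bank1 and Pbx3 in the longest. Cd79a and Vpreb3 lay below the lower quartile of their group (-0.36) and Cd79b (0.15) above its upper quartile (0.10). Bank1 lay below the lower quartile of the longest group (-0.10) and Pbx3 above its upper quartile (0.26). Ebf1 and Pax5 lay between the quartiles. Ribosomal protein genes took 10.4% of Dpf2 KO and 11.9% of WT B cell UMIs, and mitochondrial genes 2.40% of Dpf2 KO and 2.04% of WT. The part of span or of RNA quality in these differences was not tested.

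**Figure D5:**
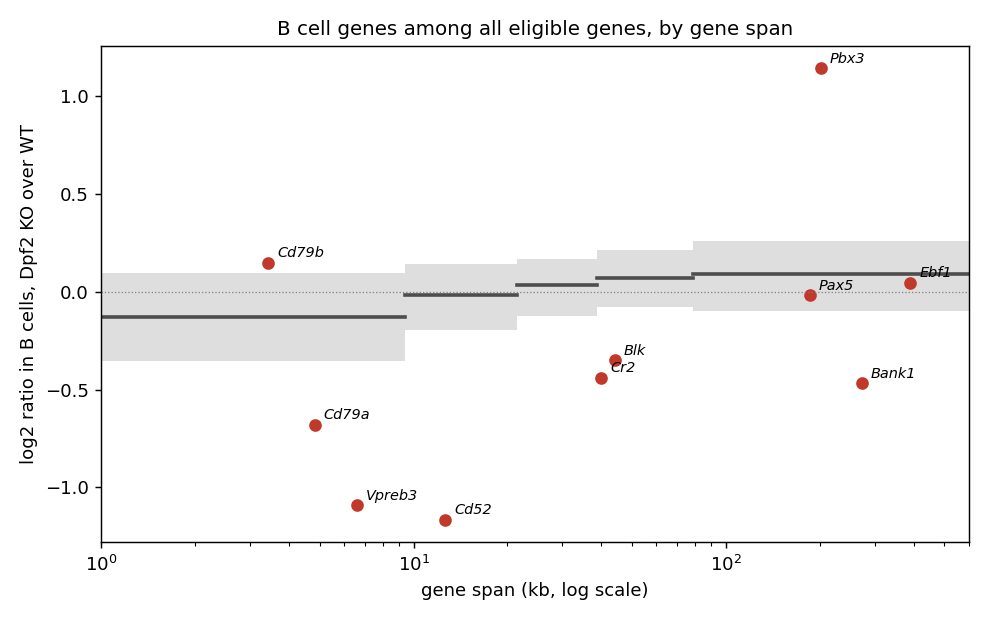
Log2 ratio of Dpf2 KO over WT in B cells for the 10 genes (red points) by gene span in kb on a log axis. Grey bars are 5 groups of 1394 genes by span, with the median as a dark line and the shading from the lower to the upper quartile. Vpreb3, Cd52, Cd79a, Cr2, Blk and Bank1 lie below the shading of their group, Pbx3 and Cd79b above it, and Ebf1 and Pax5 within it.

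Over 28 points, each a cell class in 1 library, the profile of Pax5 was most like those of Ms4a1 (Pearson r 0.956), Bank1 (0.952) and Ighd (0.952) among 14061 genes. Ebf1 was most like Pax5 (0.913), Gm47782 (0.865) and Bank1 (0.857). Cd79a was most like Vpreb3 (0.974), Gm48067 (0.959) and Gm4610 (0.957), and none of the other 8 members was among its nearest 3. The points share libraries and depth, so these values are a description.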

How the data were processed

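The deposited count matrices of 2 libraries hold raw UMI counts per gene and barcode; the authors ran Cell Ranger 7.0.0 on build GRCm38, per the submitters' processing notes. Barcodes numbered 8794 in Dpf2 KO (49590755 UMIs) and 10958 in WT (64786549 UMIs). Cells with at least 200 genes, 500 UMIs and at most 20% mitochondrial UMIs were kept, and Scrublet removed 416 Dpf2 KO and 637 WT cells as doublets.

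Both libraries were clustered together in scanpy 1.11.5 (python 3.11.15) on 2000 variable genes without immunoglobulin and T cell receptor segments and without the 10 genes, with 30 components, 20 neighbours and Leiden resolution 1 (leidenalg 0.10.2). Clusters were named from marker lists. A rule that kept innate lymphocyte names off clusters in which at least 50% of cells had a CD3 gene was set after the clusters were seen. B cells were 2 clusters, of which 1 had heat shock genes among its leading genes. The cluster rule for IgD gave narrow differences that moved with depth, so all B cells and single cells' Ighd UMIs come first.

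UMIs were summed per class and library. Intervals are at 95% and exact: Poisson for levels, conditional binomial for folds, Clopper-Pearson for shares. A gene had enough UMIs with at least 100 over both sums and a UMI in at least 5% of cells of either. Fold recovery was checked on simulated Poisson counts, which hold counting error only. That check does not cover variation between cells, mice or libraries. Genes named from the lists are at most 3 per list and direction past 1.5-fold. Positions matched 54809 of 54838 gene IDs. Whether counting used strand is not stated; genes overlapping the members had few UMIs in B cells, and all but Mir5120 (0 UMIs, in Pax5) lie on the opposite strand. Members and lists were chosen with earlier results of these data known. Some genes are not reported here.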

Additional observations from a re-analysis of the deposited data

Results flagged for a closer look

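Cd79a and Bank1 had opposite directions in B cells and plasma cells. The Cd79a log2 ratio of Dpf2 KO over WT was -0.68 in B cells and 0.14 in plasma cells. The Bank1 log2 ratio was -0.47 in B cells and 0.73 in plasma cells, where its level was below that given by the B cell tracers. Vpreb3 in plasma cells had a log2 ratio of 0.33 in cells with Xist UMIs only and -0.52 in cells with Y-linked UMIs only, where all plasma cells, those with neither or both included, gave -0.04. Each stands here because counting intervals on both sides were clear of equal levels, and the differences themselves were not tested.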

How the results depend on the processing

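No paired analysis was possible because each genotype had 1 library, and for the same reason no library could be left out. In B cells Cd79a, Vpreb3, Cd52 and Pbx3 kept their direction and stayed past 1.5-fold in 13 of 13 alternatives, with log2 ratios from -0.76 to -0.61, -1.18 to -0.83, -1.41 to -0.97 and 0.93 to 1.24. Cr2 ran from -0.69 in Y-linked cells to -0.09 in Xist cells. In plasma cells Ebf1 and Cd52 stayed past 1.5-fold in 12 of 12 alternatives and Bank1 in 9 of 12. The plasma cell levels of Ebf1 and Bank1 lay below those given by the B cell tracers. Their stability is therefore not read as a difference in expression. Weighting clusters alike gave no value for plasma cells, which were 1 cluster. What follows moved; the cause was not tested.

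Without immunoglobulin UMIs the members' median for plasma over B cells was -2.10 in Dpf2 KO and -1.93 in WT, and Vpreb3 in WT turned from -0.64 to 0.010. Size factors gave medians of -2.03 in Dpf2 KO and -1.93 in WT, a pseudocount of 1 gave -3.17 and -2.92, and one of 50 gave -1.56 and -1.35. The share of plasma cells with a Cr2 UMI turned from a log2 ratio of -0.71 to 0.57 without thinning and 0.55 at 2000 UMIs. Over all genes, those past 1.5-fold between genotypes with a pseudocount of 1 were 707 in all B cells (348 in the report's setting), 699 in IgD-positive (402), 812 in IgD-negative (408), 1466 in plasma cells (622) and 998 in T cells (540). A pseudocount of 50 gave 71, 77, 89, 161 and 150 in that order, and plasma over B cells then gave 2615 (4854) in Dpf2 KO and 2345 (4548) in WT. With no filter on low counts IgD-positive cells gave 744, and the 10% mitochondrial limit gave 627 in IgD-negative cells. T cells gave 323 with clusters weighted alike and 821 in Y-linked cells.

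IgD-negative over IgD-positive cells were the least stable, with 1136 genes in Dpf2 KO and 696 in WT. In Dpf2 KO the counts were 572 for a mean over cells, 1833 and 332 for pseudocounts of 1 and 50, 462 at 10% mitochondrial UMIs, 385 at resolution 2, 249 with members among the variable genes, 85 by each cell's Ighd and 669 in Xist cells. In WT they were 1052 and 199 for those pseudocounts, 1171 unfiltered, 269 at 10% mitochondrial UMIs, 367 at resolution 2, 262 with members among the variable genes, 91 by each cell's Ighd and 363 in Y-linked cells. The members' medians there were 1.02 in Dpf2 KO (0.06) and 0.85 in WT (-0.15) with doublets kept, and 0.044 in WT at 10% mitochondrial UMIs. Between genotypes the median in IgD-positive cells was -0.28 at resolution 2 and -0.25 with clusters weighted alike (-0.48), in IgD-negative cells -0.036 in Xist cells (-0.26), in all B cells -0.12 in Xist and -0.54 in Y-linked cells (-0.39), and in plasma cells 0.49 in Y-linked cells (0.14).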

Other observations

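Subcluster 1 of the B cells, led by the heat shock genes Hspa1b, Hspa1a, Hsph1 and Dnajb1, held 608 Dpf2 KO cells and 80 WT cells. Cd79a was at 303 in its Dpf2 KO cells and 589 in its WT cells, and Vpreb3 at 72.8 in Dpf2 KO and 155 in WT. Subcluster 3, with Ly6d and Nr4a2 among its leading genes, held 95 Dpf2 KO and 297 WT cells. There Cd79a was at 313 in Dpf2 KO and 586 in WT, and Vpreb3 at 73.0 in Dpf2 KO and 179 in WT. Cluster 3 of all cells, which got no cell type name, had Cd52 at 296 in Dpf2 KO and 571 in WT, and Pbx3 at 133 in Dpf2 KO and 78.8 in WT.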
